A study of Mus musculus with 7 samples.

Results

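Cells named iHep were compared with hepatocytes taken from adult mouse livers, on 4 of the 7 whole-genome expression arrays of the study. They were chosen by title: the 3 arrays titled iHep (4α1)-MEF, iHep (4α2)-MEF and iHep (4α3)-MEF, called types 1, 2 and 3 here, and the only array titled Hepatocyte. The iHep cells were made from mouse embryonic fibroblasts (MEF) of 13.5 dpc embryos (days post coitum), and 3 arrays of such fibroblasts served as a second reference. All animals were C57BL/6. The study is known for adding the liver transcription factor Hnf4a together with a Foxa factor to fibroblasts, but the sources used here do not say which gene the last digit of each type stands for. Each type was measured once, so the spread among the iHep arrays also holds the differences between types. The hepatocyte group was a single array, and its number of animals, their exact age and how the cells were isolated were not given in the sources used here.

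Hepatocytes make most plasma proteins, clear ammonia through the urea cycle, make bile acids from cholesterol, release glucose in fasting, and oxidise drugs with cytochrome P450 enzymes. These genes are driven by a network in which Hnf4a, Foxa and Cebp factors bind each other's promoters and those of the target genes. Fetal liver cells express many plasma protein genes before birth, whereas much of the enzyme repertoire for amino acids, drugs and bile acids reaches its full level only after birth.

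Levels are given as log2 of the background-subtracted signal minus the 75th percentile of the array, so that 0 is the signal at that percentile. A gene was called detected where its brightest probe was flagged well above background. The difference between iHep and hepatocyte was fitted over 19130 genes with limma and called at a Benjamini-Hochberg adjusted p under 0.05. A fold is called "at least" where the dimmer side was not well above background, or where the brighter side was saturated. It was then taken against the lowest well-measured signal of the array. Where only some iHep types detected a gene, the fitted change includes signals not above background, and no fold is given. Folds of dim genes depend on the background correction: with normexp and an offset of 50, the log2 change of Cyp2e1 went from -16.18 to -11.58 and that of Gkn2 from 14.50 to 9.93. Levels of different probes were not compared. The single hepatocyte array was assumed to vary as the iHep and MEF arrays did. The hepatocyte array was also alone on its slide, while the iHep arrays shared another slide with 1 MEF array, so slide and cell type cannot be told apart in any result here.

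The 75th percentile was 608 signal units for hepatocytes, the dimmest array, and up to 1484 for MEF. Probes flagged well above background made up 60.2% to 68.7% of an array. Of 6 hepatocyte markers, all were detected on the hepatocyte array, with a mean level of 8.16, and 4, 5 and 5 in types 1, 2 and 3, with mean levels of 0.47, 1.79 and -1.29. On the MEF arrays the same mean was -7.33 or lower. The mean of 6 fibroblast markers was 2.68, 2.12 and 1.1 in the iHep types, between 5.77 and 5.94 on the MEF arrays and -3.46 in hepatocytes. Markers of other liver cells were present on the hepatocyte array: 6 of 6 for Kupffer cells (mean 0.40), 5 of 5 for sinusoidal endothelium (mean -0.09), 3 of 4 for stellate cells and 1 of 2 for red cell precursors. In the iHep types the Kupffer mean was -6.68 to -7.49 and the endothelial mean -4.69 to -5.68. On the MEF arrays these means were -3.20 to -4.08 and -4.73 to -5.085. The part of other liver cells in the differences below was not tested. In such bulk RNA, fewer cells that express a gene and less of its RNA in each cell cannot be told apart.

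Most genes on lists of hepatocyte functions were below the adult level in iHep, and most of them were still detected there. Of the 19130 genes, 5191 (27.1%) were higher in hepatocytes, 4232 (22.1%) were higher in iHep and 9707 (50.7%) passed the test in neither direction. With quantile normalization the counts were 4434 and 4919, so that the hepatocyte share of the calls went from 55.1% to 47.4%, and the median change over all genes moved by 0.20 from its value of -0.17. Among 588 tested genes on 18 lists of hepatocyte functions, 475 (80.8%) were higher in hepatocytes and 25 (4.25%) were higher in iHep, and the median change was -4.93. Of the 586 detected in hepatocytes, 82 were detected in no iHep type, 75 in some types and 429 in every type. That is 14.0% in no type and 73.2% in every type, against 8.63% and 84.8% of the 17173 genes detected in hepatocytes. Of those 429, 330 were lower in iHep, 76 were not called and 23 were higher in iHep. Only 45 of the 429 were detected on no MEF array, so most were also detected on some array of the starting fibroblasts. Over all genes detected in hepatocytes and in every type, 181 of 14566 were on no MEF array.

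**Figure D1:**
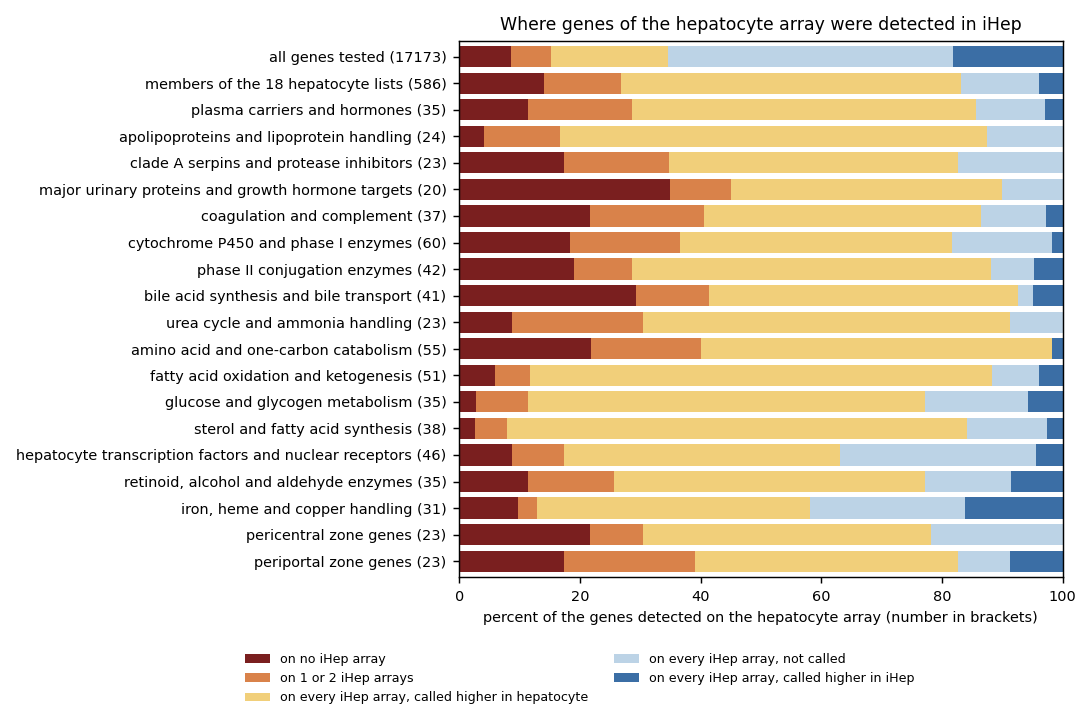
Bars show, for each list of hepatocyte genes, what share of the members detected in hepatocytes was detected on no iHep array, on some, or on every iHep array, the last split by the call between iHep and hepatocyte. Of 586 such genes over all 18 lists, 82 were detected on no iHep array and 429 on every one, of which 330 were called lower than in hepatocytes.

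The MEF arrays show how far the genes that stayed low had moved from the starting cell. Among the list genes, 423 were at least 4-fold above every iHep array in hepatocytes. For 242 of them (57.2%), no iHep array was detected and 2-fold above every MEF array, and for 93 (21.99%) every iHep array was. Over all genes the same split was 2146 of 2646 (81.1%) and 190 (7.18%). By this count the amino acid catabolism list had 33 of 48 genes with no iHep array above MEF and 4 with every iHep array above. The P450 list had 17 and 15 of 46, and the major urinary protein list 15 and 2 of 18.

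The promoters of 7 genes whose results follow are printed as a view of the sequence before each start site, for plasma protein genes detected on every iHep array and on no MEF array (Alb, Ahsg, Fgb), for genes that were not detected in iHep (Slc10a1, Slco1b2, Cpn1) and for an intestinal gene that was detected in iHep alone (Cdx2). They are RefSeq sequences on GRCm38.p6, each from 250 bases before the start site up to it. Capitals mark exact matches, on either strand, to the letters GTTAAT (part of a site common in liver promoters), CAAAGTC (part of the Hnf4 site) or TGTTTAC (the Foxa site). For Slc10a1, the start with a match is shown out of 2 listed starts. Every sequence shown holds a match, so they do not show how common matches are in such genes. The shares over whole sets of promoters are given after the sequences.
Alb, chr5:90460620-90460869, plus strand: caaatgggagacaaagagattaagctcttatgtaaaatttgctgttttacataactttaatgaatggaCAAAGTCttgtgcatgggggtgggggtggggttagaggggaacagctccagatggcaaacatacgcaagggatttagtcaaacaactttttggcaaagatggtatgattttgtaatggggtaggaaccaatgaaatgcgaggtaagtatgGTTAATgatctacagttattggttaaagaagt
Ahsg, chr16:22891765-22892014, plus strand: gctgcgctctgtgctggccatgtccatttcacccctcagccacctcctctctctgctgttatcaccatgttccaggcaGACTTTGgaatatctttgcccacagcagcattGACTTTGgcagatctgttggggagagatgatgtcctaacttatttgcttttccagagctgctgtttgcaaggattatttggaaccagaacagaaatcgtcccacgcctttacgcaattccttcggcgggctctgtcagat
Fgb, chr3:83049864-83050113, minus strand: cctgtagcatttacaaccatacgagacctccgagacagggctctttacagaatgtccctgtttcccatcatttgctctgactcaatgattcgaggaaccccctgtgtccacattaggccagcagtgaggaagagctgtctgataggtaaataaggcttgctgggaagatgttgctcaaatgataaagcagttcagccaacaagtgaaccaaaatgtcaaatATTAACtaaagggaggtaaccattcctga
Slc10a1, chr12:80968706-80968955, minus strand: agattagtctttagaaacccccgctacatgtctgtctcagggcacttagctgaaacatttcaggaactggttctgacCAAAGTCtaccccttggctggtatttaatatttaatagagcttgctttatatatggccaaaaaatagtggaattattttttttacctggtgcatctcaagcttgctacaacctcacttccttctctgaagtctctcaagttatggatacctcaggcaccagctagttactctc
Slco1b2, chr6:141629268-141629517, plus strand: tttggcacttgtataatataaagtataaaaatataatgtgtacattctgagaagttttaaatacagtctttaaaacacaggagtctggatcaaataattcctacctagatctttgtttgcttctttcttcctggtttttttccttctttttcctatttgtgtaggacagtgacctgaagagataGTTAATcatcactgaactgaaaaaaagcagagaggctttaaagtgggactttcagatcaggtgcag
Cpn1, chr19:43986521-43986770, minus strand: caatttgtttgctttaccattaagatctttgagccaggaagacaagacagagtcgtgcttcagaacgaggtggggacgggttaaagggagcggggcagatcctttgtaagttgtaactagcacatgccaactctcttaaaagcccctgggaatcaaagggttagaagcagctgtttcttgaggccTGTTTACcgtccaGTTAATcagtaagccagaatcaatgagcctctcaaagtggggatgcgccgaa
Cdx2, chr5:147307250-147307499, minus strand: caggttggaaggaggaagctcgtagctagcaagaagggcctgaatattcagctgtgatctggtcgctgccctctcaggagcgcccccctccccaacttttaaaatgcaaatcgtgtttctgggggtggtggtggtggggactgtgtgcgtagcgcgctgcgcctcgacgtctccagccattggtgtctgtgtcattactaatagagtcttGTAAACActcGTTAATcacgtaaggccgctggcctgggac

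Matches to GTTAAT were present in 7.10% of the 32851 promoters, each from 250 bases before to 50 after the start, in 5.26% of those of the tested genes, and in 18.4% of the 76 promoters of list genes detected in hepatocytes and in no iHep type. Among 414 promoters of list genes detected in every iHep type the share was 10.4%, and among the 40 of those whose genes were on no MEF array it was 20.0%. CAAAGTC was in 4.04% of promoters of tested genes, 10.5% of those of the missing genes and 17.5% of the 40. TGTTTAC was in 2.79%, 11.8% and 2.50%, the last being 1 promoter. A match is a description of the letters, not evidence of binding.

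Gaps in plasma protein genes ran over a wide range. Ahsg, which encodes fetuin-A, was at 8.02, 8.31 and 5.97 in types 1, 2 and 3 and at 9.64 in hepatocytes, a change of -2.21 ± 1.02 (SE; adjusted p = 0.132). Fgb, a fibrinogen chain, was at 7.38, 8.12 and 7.12 against 9.71, and was lower in iHep by 4.48-fold (adjusted p = 0.0201). The call of Fgb was lost under quantile normalization (change -0.88, adjusted p = 0.267), with the deposited value table (0.279) and without type 1 (0.0550). None of the MEF arrays detected either gene. Alb, which encodes albumin, was at 6.46, 7.92 and -0.21, while its hepatocyte signal was saturated at 9.95. The hepatocyte level was at least 37.6-fold the iHep mean (change -5.23 ± 3.16, adjusted p = 0.223), and without type 3 the difference was called (-2.77, adjusted p = 0.0310). Type 3 lay far below the other types for this gene. Transferrin (Trf) was at 4.20, 8.05 and 4.78 against 9.44 and was not called (adjusted p = 0.101), but it was called without type 2 (adjusted p = 0.00387).

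Other carriers were far below. Ttr, which carries thyroid hormone and retinol-binding protein, was at -1.09, -1.17 and -4.06 against 5.67, a 219-fold gap (change -7.78 ± 1.29, adjusted p = 0.00744). Of the 35 plasma carrier and hormone genes, 30 were lower in iHep, 1 was higher and the median change was -8.01.

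Lipoprotein genes split in the same way. Apoa1, the main protein of HDL, was at 7.34, 7.25 and 5.67 against 8.37 and was not called (adjusted p = 0.167). Apob, the scaffold of VLDL, was at 0.96, 3.40 and -0.75 against 7.55, an 81.3-fold gap (adjusted p = 0.0233) whose call was lost without type 1 (adjusted p = 0.0591). Apoa2 was detected in types 2 and 3 at -5.13 and -5.28 against 9.22, and Apoa5 in type 3 alone at -5.70 against 7.68. Both were called. In all, 21 of 24 apolipoprotein and lipoprotein genes were lower in iHep and 0 were higher, with a median change of -6.93. The others, Apoa1, Apoc2 and Apoe, were not called. Apoe was at 4.77, 7.75 and 3.97 against 9.88, and was called without type 2 (adjusted p = 0.00395) and with normexp background (0.0497).

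Of 23 protease inhibitor genes, 19 were lower in iHep and 0 were higher (median -7.27). The alpha-1-antitrypsin gene Serpina1a is read by the probe named Serpina1d, at 6.22, 7.64 and 3.66 against 9.71 (change -3.86 ± 1.5, adjusted p = 0.0842). This difference was called without type 2 (adjusted p = 0.0324) and without type 3 (0.0290). Probes for the near-identical copies Serpina1b and Serpina1e gave 112-fold and 154-fold gaps, both called (Serpina1b not without type 1, adjusted p = 0.0571), and how much each probe reads its neighbours is uncertain. Serpina3k, another abundant adult serpin, was at -5.39, -3.60 and -5.65 against 8.36, a 9717-fold gap.

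Clotting and complement genes were lower in iHep in 32 of 37 cases and higher in 1, with a median change of -9.08. Prothrombin (F2) was at -4.81, -3.64 and -3.06 against 9.40, a 9685-fold gap (change -13.24 ± 0.71). Protein C (Proc), an anticoagulant protease, was at -5.32, -4.89 and -5.23 against 7.87. It was also detected on all 3 MEF arrays. Among the genes detected in no iHep type were C8a, a subunit of the membrane attack complex, at 6.38 in hepatocytes, Mbl2, a lectin that starts complement activation, at 8.39, and Cpn1, a carboxypeptidase of plasma, at 4.68. The hepatocyte levels of Mbl2 and Cpn1 were at least 22270-fold and 1706-fold above iHep. The gene called higher in iHep, Masp1, is uncertain, because 3 of its 4 probes had the opposite sign.

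On the major urinary protein and growth hormone target list 18 of 20 genes were lower in iHep and 0 were higher. The median change was -11.06, or -9.19 with genes not above background at their bound and -7.74 with normexp background. Mup1 was detected in type 2 at -4.27 and in no other type, against 9.99 in hepatocytes. Mup5 was detected in no type and was at 8.24. The Mup genes are close copies, so their probes may read each other's transcripts. Igf1, the growth factor made by liver under growth hormone, was at -1.30, -1.25 and -4.82 against 6.57 (521-fold).

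**Figure D2:**
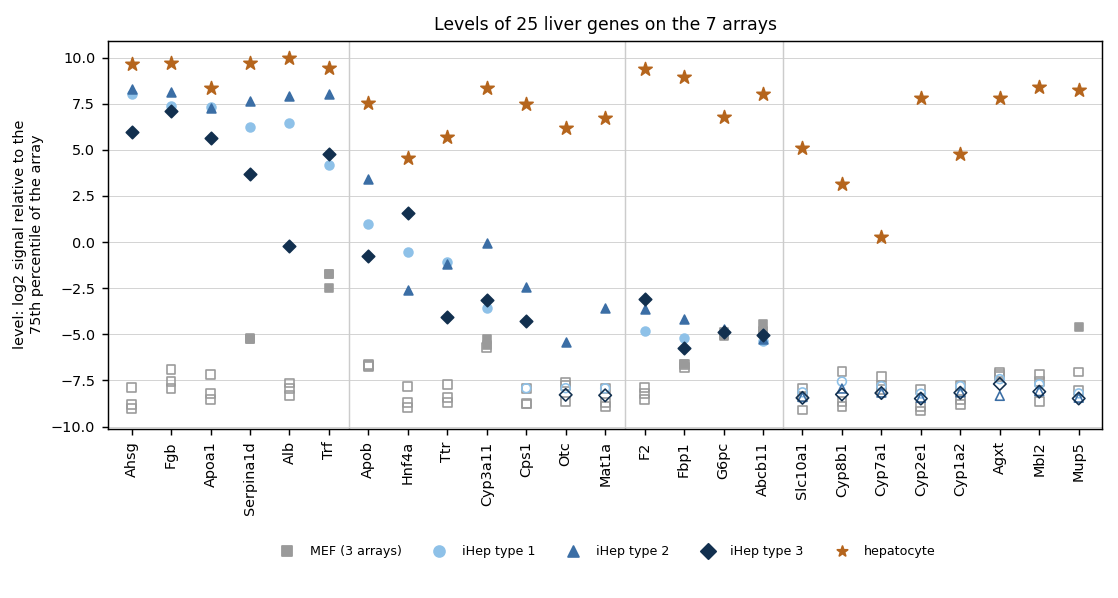
Each point is the level of a gene on 1 array (log2 relative to the 75th percentile), with the 3 iHep types, the hepatocyte array and the 3 MEF arrays in separate marks, and open marks for probes without the flag for signal above background. Ahsg and Fgb lie within about 4 units of the hepatocyte point on every iHep array, while Cyp2e1 and Agxt show no filled iHep point. Grey lines only set groups of genes apart.

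Drug-metabolising genes were mostly lower. Of 61 P450 and other phase I genes, 45 were lower in iHep and 2 were higher, with a median change of -7.00. Cyp2e1, which oxidises ethanol and acetaminophen, was detected in no iHep type and was at 7.80 in hepatocytes, at least 14830-fold higher (change -16.18 ± 0.45, adjusted p = 0.000136). Cyp1a2 was likewise detected in no type (at least 1811-fold). Cyp3a11, the main mouse Cyp3a enzyme, was at -3.60, -0.04 and -3.11 against 8.35, a 1553-fold gap. Cyp2f2 was at -1.02, 2.90 and -4.95 against 8.91, and its call (adjusted p = 0.0486) was lost under quantile normalization (0.0711), with the deposited value table (0.0712) and without type 1 (0.0997). Cyp2b9 and Cyp2b13, which are close copies, were not called: Cyp2b9 was at 0.33, 1.05 and -2.90 against 0.48. Cyp2s1, a P450 of epithelia outside the liver, was higher in iHep (4.73, 5.30 and 4.64 against -3.89).

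Among 42 conjugation genes, 37 were lower in iHep and 2 were higher (median -5.18). The glucuronosyltransferase Ugt2b5 was detected in no type and was at 7.03 in hepatocytes, and Ugt2b38, a related gene, was at 7.11 in hepatocytes alone. The higher genes were the glutathione transferases Gsta4 (4.50-fold) and Gsto1 (3.94-fold), and both were on all 3 MEF arrays. Sult1c2, a sulfotransferase, was at -4.21, -5.72 and 0.54 against 1.29 and was not called, but it was called without type 3 (change -6.26, adjusted p = 0.00790).

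The genes of bile acid synthesis and bile transport were lower in iHep in 37 of 41 cases and higher in 2, with a median change of -6.39, and 12 were detected in no iHep type. Cyp7a1, which catalyses the limiting step from cholesterol to bile acids, was at 0.28 in hepatocytes and detected in no type, at least 80.5-fold higher. Cyp8b1, which sets the cholic acid share, was at 3.12 in hepatocytes alone, and Slc27a5, which activates bile acids for conjugation, at 7.61 in hepatocytes (at least 12930-fold). The uptake carriers of the sinusoidal membrane were missing too: Slc10a1, the sodium-dependent bile acid carrier, was at 5.12 in hepatocytes (at least 2300-fold), and Slco1b2 at 7.86 (at least 15440-fold). Abcb11, the bile salt export pump, was detected in every type at -5.33, -5.28 and -5.05 against 8.0, a 9522-fold gap (change -13.22 ± 0.29), and also on all 3 MEF arrays. The genes that were higher in iHep were the export pumps Abcc4 (30.8-fold) and Abcb1a (14.2-fold).

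Urea cycle genes were low. Cps1, which fixes ammonia at the start of the cycle, had signal above background in types 2 and 3, at -2.45 and -4.30 against 7.48 (change -12.37 ± 2.06, adjusted p = 0.00753). Otc, the next enzyme, was detected in type 2 alone at -5.42 against 6.19. Arg1, which releases urea, was detected in types 1 and 2 at -2.75 and -5.38 against 7.03. Of 23 urea cycle and ammonia genes, 21 were lower in iHep and 0 were higher (median -5.76). The others, Glul and Slc38a2, were not called. Glul, which makes glutamine, was at 5.46, 5.18 and 5.48 against 4.78, and was called higher in iHep under quantile normalization (change 1.29, adjusted p = 0.0102) and with the deposited value table (0.0104). Slc38a2, a glutamine carrier, was called lower with the mean of its probes (change -1.94, adjusted p = 0.00477).

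Amino acid catabolism had the highest share of lower genes, 53 of 55 (96.4%), with a median of -7.50. Agxt, which detoxifies glyoxylate, and Hpd of tyrosine breakdown were detected in no iHep type, and were at 7.79 and 6.69 in hepatocytes (at least 14730-fold and 6837-fold). Tat, the tyrosine aminotransferase, was the partial case at -0.27, -2.57 and -0.87 against 7.07 (317-fold), and was detected on all MEF arrays. Oxct1, which breaks down ketone bodies and is low in adult hepatocytes, was higher in iHep (4.00, 3.98 and 5.25 against -0.59).

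Genes of glucose output were low as well. Fbp1, of gluconeogenesis, was at -5.17, -4.17 and -5.73 against 8.96, a 16180-fold gap (change -13.98 ± 0.62, adjusted p = 0.000223). Its probe lies at chr13:62874438-62874497 on mm8, the build of the array annotation. G6pc, which frees glucose from its phosphate, was at -4.88, -4.70 and -4.88 against 6.79 (3113-fold), and its MEF levels were -5.06, -4.88 and -5.09. Gys2, the liver glycogen synthase, was detected in no type. On the glucose and glycogen list 27 of 35 genes were lower in iHep and 2 were higher (median -3.44). The glucose transporters and enzymes of glycolysis are set out with their other forms below.

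Lipid pathways showed smaller gaps. On the fatty acid oxidation and ketogenesis list 44 of 51 genes were lower, 2 were higher and 45 were detected in every type, with a median of -2.97. Fabp1, the liver fatty acid carrier, was detected in types 2 and 3 at -3.89 and -0.36 against 9.36. Cpt1a, which brings fatty acids into mitochondria, differed by 3.60-fold. The higher genes were Pdk4, which brakes pyruvate oxidation (41.2-fold), and Vnn1 (9.55-fold), whose call was lost without type 1 or type 2. Of 38 sterol and fatty acid synthesis genes, 31 were lower and 1 was higher (median -2.62). That gene, Srebf2, the regulator of cholesterol synthesis, was 2.21-fold higher in iHep, with 1 of its 4 probes of opposite sign, and its call was lost without type 1 or type 2. Hmgcs1, a step of cholesterol synthesis, was 9.81-fold lower.

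Of 46 liver transcription factor genes, 27 were lower in iHep, 2 were higher and 17 were not called (median -3.05). Hnf4a was at -0.55, -2.58 and 1.56 against 4.56 (change -5.08 ± 1.57, adjusted p = 0.0474). This call was lost under quantile normalization (adjusted p = 0.0640), with the deposited value table (0.0641) and without type 1 (0.0988). Whether its probe reads an introduced copy was not given in the sources used here. Cebpa was at 0.62, 0.49 and -0.42 against 4.93 (26.0-fold).

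Signals of the Foxa genes differed by type, and whether their probes read introduced copies was not given in the sources used here. Foxa1 and Foxa2 were each detected in type 1 alone, at -3.06 and -0.94, against -0.84 and 3.94 in hepatocytes, and neither was called (adjusted p = 0.0851 and 0.0530), though both were called without type 1 and with normexp background. Foxa3 was detected in no type and was at 1.95 in hepatocytes, at least 256-fold higher. Nr5a2, which drives bile acid genes, was also detected in no type (at least 400-fold), and Nr1h4, the bile acid receptor, was detected in type 1 alone at -1.58 against 4.82. Creb3l3, a fasting regulator, was at -5.00 and -3.71 in types 1 and 2 against 6.13. The drug sensor Nr1i3 was lower by 119-fold and Prox1 by 13.03-fold. The higher factors were Cebpd (13.2-fold) and Pparg (3.66-fold), the latter known from fat cells and no longer called without type 2.

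Genes of both liver zones were low. Of 23 pericentral genes, 16 were lower and 0 were higher (median -3.72), and of 23 periportal genes, 19 were lower and 2 were higher (median -9.94). The higher periportal genes were Spp1, which also marks bile ducts (7.40-fold), and Cdh1 (3.72-fold). The difference between the zones was not tested.

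Retinoid and iron lists were more mixed. On the retinoid, alcohol and aldehyde list 27 of 36 genes were lower and 4 were higher (median -4.01): Adh4 was at -3.14 and -5.61 in types 1 and 2 against 5.99, while Aldh3a1, an aldehyde enzyme of the cornea and stomach, was at 2.01, 0.72 and 2.21 and not detected in hepatocytes. On the iron, heme and copper list 18 of 31 genes were lower and 5 were higher (median -2.0). Hamp, the iron hormone hepcidin, was detected in type 2 alone at -5.91 against 6.05, while Lcn2 (218-fold), Hmox1 (14.8-fold) and Mt2 (8.12-fold) were higher in iHep. The call of Hmox1 was lost without type 2, and 3 genes of the list were higher in iHep with the mean of all probes of a gene. Alas2, the heme enzyme of red cell precursors, was at 4.52 on the hepatocyte array and detected in no iHep type.

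Of 43 mitochondrial genes, 25 were lower in iHep and 1, Idh3a, was higher (median -1.17), a call lost without type 1 (adjusted p = 0.0596). Sdha, a subunit of complex II, was at 2.12, 2.14 and 2.59 against 4.26. These small differences depended on the scaling: under quantile normalization 5 genes were lower, with a median of -0.35, and without type 1 or type 2 the count was 12 or 15. It was 16 without MEF arrays, without either MEF sample or with no filter on dim genes.

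**Figure D3:**
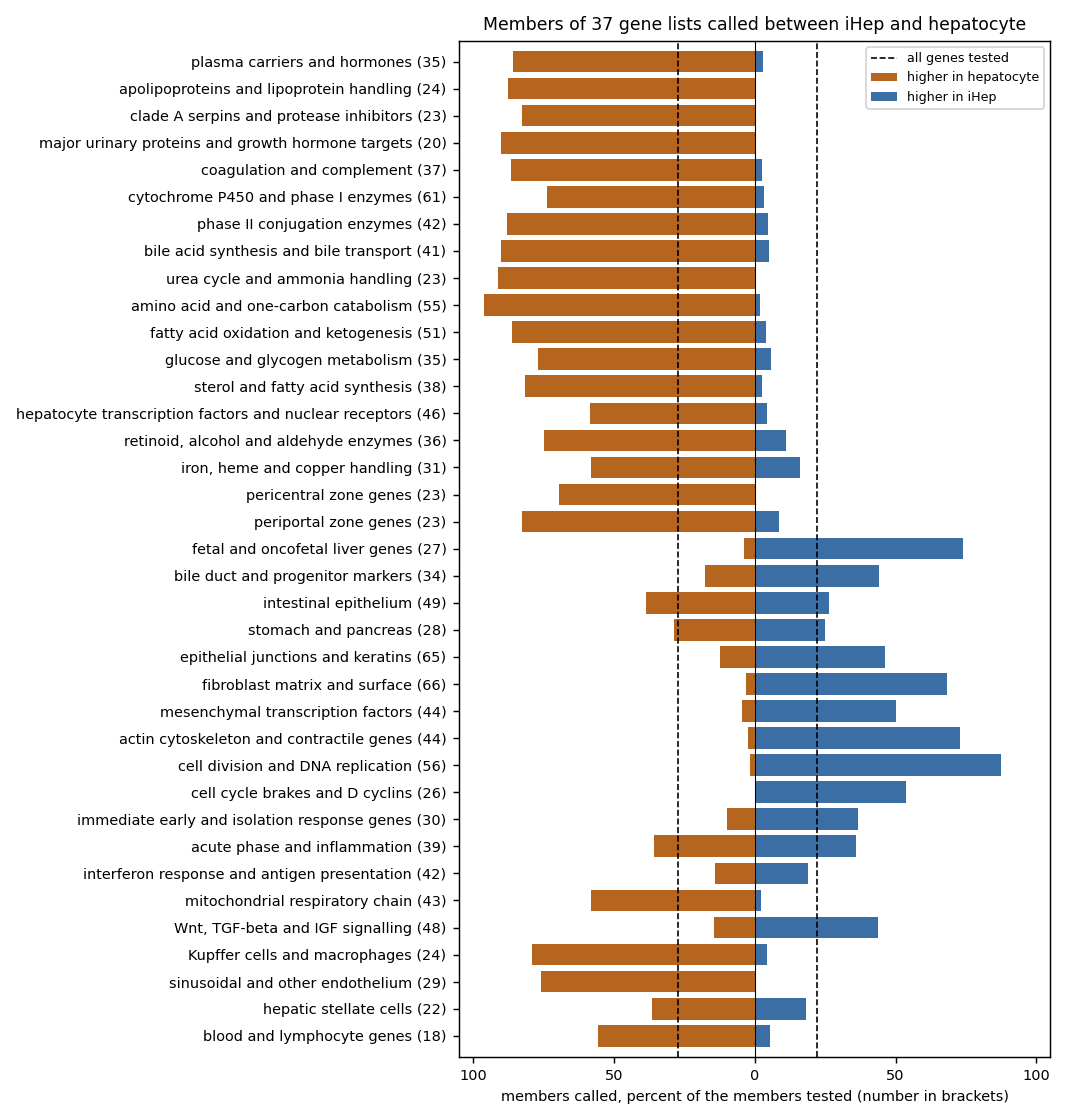
For each of the gene lists, bars give the share of tested members called higher in hepatocytes and higher in iHep, with the shares over all 19130 genes drawn as reference lines. Amino acid catabolism has the most members on the hepatocyte side (53 of 55), and the cell division list has most on the iHep side (49 of 56).

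For many liver functions, mammals have a form typical of adult liver and another found in fetal or other tissues. The pairs used here were mostly enzymes and carriers, but also included connexins, cadherins, growth factors, albumin family genes and transcription factors. Of 26 such pairs, 25 had both members on the array, and in 1 of these a member was not tested. In 13 the adult form was higher in hepatocytes while the other form was higher in iHep. Pyruvate kinase was an example. Pklr, the liver pyruvate kinase, was detected in type 3 alone at -6.00 against 1.42, while Pkm was at 5.23, 4.89 and 4.98 against -2.09 (140-fold higher in iHep, change 7.12 ± 0.25). For glucose transport, Slc2a2, the carrier of adult liver, was detected in type 3 alone at -5.91 against 2.70 and was lower, and Slc2a1 was 8.203-fold higher.

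The same pattern of opposite calls held for Pygl and Pygb of glycogen breakdown (15.5-fold lower, 67.1-fold higher), Gys2 and Gys1 of its synthesis, and Mat1a and Mat2a of methionine use. The desaturases Scd1 and Scd2 showed this pattern too (114-fold lower, 142-fold higher). It also held for Fbp1 and Fbp2, Cpt1a and Cpt1c, the gap junction genes Gjb1 and Gja1, and Igf1 and Igf2. Of these other forms, all but Fbp2 were detected on every MEF array. Gys1, Scd2, Cpt1c, Gja1 and Igf2 were lower on each iHep array than on every MEF array. Slc2a1, Pygb, Mat2a and Fbp2 were higher on each iHep array, and the ranges of Pkm overlapped.

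The other pairs did not show opposite calls of this kind. In 4 pairs both forms were higher in hepatocytes, among them Slc10a1 and Slc10a2, Hnf4a and Hnf4g, and Cebpa and Cebpb. The call of Cebpb was lost under quantile normalization, with the deposited value table, with the mean of its probes and without type 1, and that of Hnf4g with normexp background and with the mean of its probes. The non-hepatic forms Arg2, Adh7 and Fabp5 were not called, and their adult partners were lower in iHep. Both phosphofructokinases were higher in iHep (Pfkl 2.53-fold, Pfkp 65.0-fold). In 2 pairs the adult form was not called, and the other form was either higher in iHep (Eno1 and Eno2) or not called (Alb and Afp). Hsd11b1 was lower in iHep, and its partner Hsd11b2 was not tested. For cadherins, Cdh1 was higher in iHep and Cdh2 was not called. Cdh2 was called lower with normexp background (adjusted p = 0.0354), with the mean of its probes (0.00569) and without type 1 (0.0255).

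**Figure D4:**
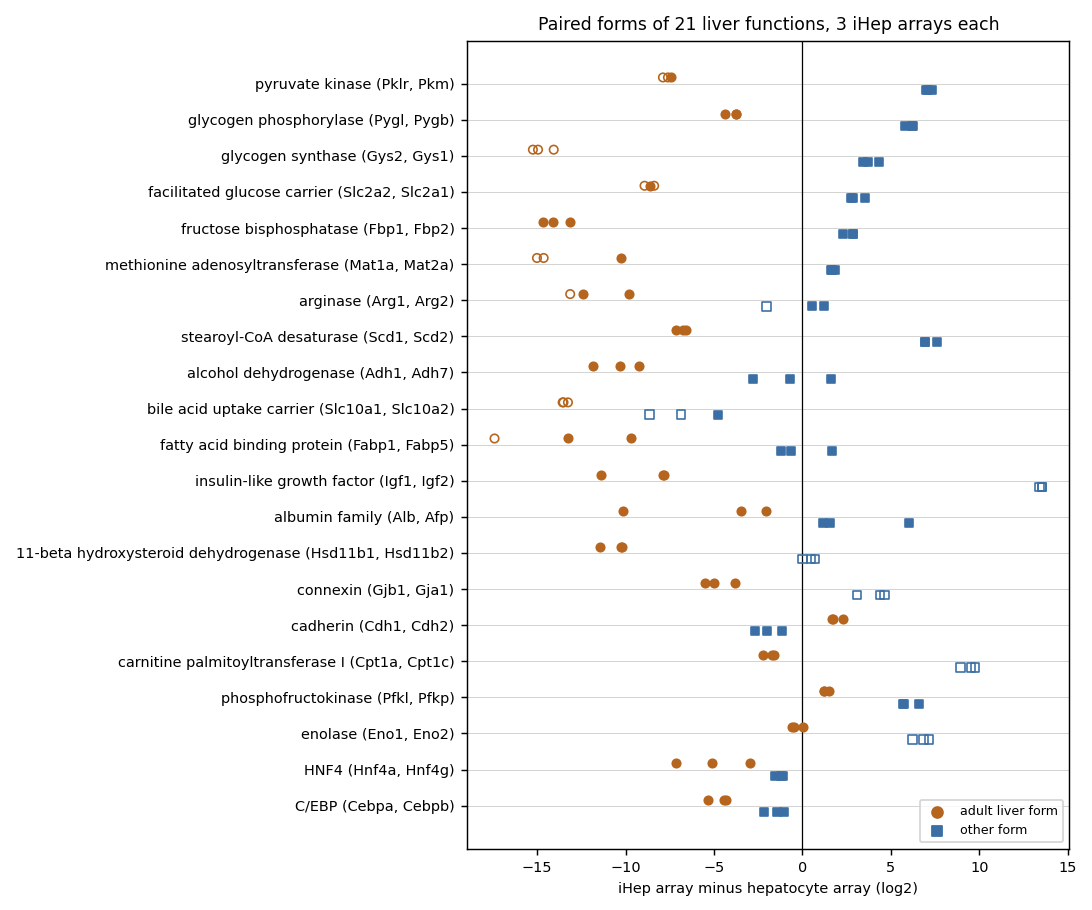
Each mark is the difference of 1 iHep array from the hepatocyte array (log2), open where either array was not well above background. Circles are the adult liver form and squares the other form, in 21 of the 25 pairs with both members on the array. In 10 of the 21 pairs drawn the adult form was called below 0 and the other form above 0.

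On the iHep side, 1262 genes (6.60%) were detected in every type and not in hepatocytes. Of these, 993 were on every MEF array and 122 on none. Among the genes measured on both sides, the largest fold was that of Anxa8, an annexin of squamous and other epithelia, at 8.47, 7.31 and 8.31 against -5.48 (11660-fold, change 13.51 ± 0.54, adjusted p = 0.000192). It was on all 3 MEF arrays. S100a6, a calcium-binding protein of dividing and mesenchymal cells, followed at 8.93, 8.46 and 8.70 against -3.27. Krt19, a keratin of bile ducts and gut, was at 7.18, 6.69 and 7.21 against -3.46 (1429-fold). S100a6 and Krt19 were also on all 3 MEF arrays.

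Fetal genes were higher in iHep in 20 of 27 cases and lower in 1, with a median of 5.12. Of these 27 genes, 24 were also detected on every MEF array, so the list does not set a fetal liver state apart from the starting fibroblasts. Igf2, the fetal growth factor, was at 6.42, 6.40 and 6.27 and not detected in hepatocytes, at least 4448-fold higher in iHep. H19, the neighbouring imprinted RNA, was at 6.24, 6.33 and 5.25 against -3.96 (956-fold). Igf2bp1, an mRNA-binding protein of fetal tissues, was detected in iHep and not in hepatocytes, and these 3 genes were on every MEF array. Afp, the fetal counterpart of albumin, was at 0.70, 5.18 and 0.33 against -0.85 and was not called (adjusted p = 0.285). Type 2 had the highest Afp and the highest Alb level of the iHep types.

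Fibroblast genes were on the iHep side. Of 66 fibroblast matrix genes, 45 were higher in iHep and 2 were lower (median 4.78), and of 44 mesenchymal transcription factors, 22 were higher and 2 were lower (median 3.66). Col1a1, the main chain of collagen I, was at 5.21, 5.45 and 4.01 against -4.63 (733-fold). Lox, which cross-links collagen, and the factors Prrx2 and Foxf2 were detected in every iHep type and not in hepatocytes, by at least 375-fold, 405-fold and 222-fold. Vim was 64.0-fold higher. On the actin and contractile list, 32 of 44 genes were higher and 1 was lower, and Acta2 was at 5.12, 6.29 and 4.46 against -3.23. Of the mesenchymal lists together, 39 of 154 genes (25.3%) were detected in every iHep type and not in hepatocytes, against 6.60% of all genes.

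Epithelial genes were also present. On the epithelial junction list, 30 of 65 genes were higher in iHep and 8 were lower (median 1.33), and Cdh1, the epithelial cadherin, was at 4.63, 4.59 and 5.20 against 2.91, with no MEF array detecting it. On the bile duct and progenitor list, 15 of 34 were higher and 6 were lower (median 1.87). Epcam was at -0.10, 1.68 and 1.97 against -4.03 (37.2-fold), Krt7 at 5.21, 5.62 and 3.09 against -3.46, and Sox9 was 3.19-fold higher. Genes of the duct list that went the other way included Pkhd1, a protein of the duct cilium, detected in no type. The mean of 4 bile duct markers was 3.47, 3.82 and 3.44 in iHep and -2.79 in hepatocytes. On the MEF arrays it was -2.01, -1.50 and -1.60. Krt7, Krt19 and Sox9 were detected on every MEF array and Epcam on none.

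Genes of gut and stomach gave no single direction. Of 49 intestinal genes, 13 (26.5%) were higher in iHep and 19 (38.8%) were lower (median -0.94). Of 28 stomach and pancreas genes, 7 (25%) were higher and 8 (28.6%) were lower (median -0.28). Over all tested genes, 22.1% were higher in iHep and 27.1% were lower. The share of higher genes on either list was thus close to that over all genes. Whether the shares differed was not tested. With normexp background 3 of the 28 stomach and pancreas genes were higher. Among genes detected on all 4 arrays, 12 of 29 intestinal genes were higher and 7 were lower, so the median turned to 2.13, and 1 of 12 stomach and pancreas genes was higher and 4 were lower. Several members were high in iHep. Gkn2, a peptide of the stomach lining, was at 7.0, 5.77 and 7.01 and detected on no hepatocyte or MEF array, at least 5219-fold above hepatocytes. Tff3, a goblet cell peptide, was at 7.79, 6.85 and 9.0 against -0.41, and Tff1, of the stomach, at 4.88, 5.64 and 8.17 against -2.45. Vil1, of the brush border, was 46.7-fold higher. Other markers of the same tissues were missing: Muc2 of goblet cells and Sis of the brush border were detected in no iHep type.

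Genes of iHep alone were those detected in every iHep type and on no hepatocyte or MEF array. There were 122 (0.638%), and this choice fixes their direction against hepatocytes. At the bound, 71 were at least 4-fold and 34 at least 16-fold above hepatocytes. The largest bounds after Gkn2 belonged to Scnn1g, a subunit of the epithelial sodium channel (3.50, 3.18 and 5.54, at least 910-fold), Mlph, of melanosome and granule transport (3.56, 3.12 and 3.63), and Smgc, a mucin-like gene of salivary glands (3.59, 1.80 and 3.83). Next were Cdx2, the intestinal master regulator, at 3.24, 2.31 and 3.59 (at least 447-fold), Lrrc26, a potassium channel subunit, Sptssb, of sphingolipid synthesis, and Fam107a. The Cdx2 probe lies at chr5:147611320-147611379 on mm8. None of these 8 genes was lower than 1.80 on any iHep array.

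Of the mesenchymal list genes, 66 of 66 for matrix, 41 of 44 transcription factors and 44 of 44 contractile genes were on every MEF array. Of 588 hepatocyte list genes, 586 were detected in hepatocytes. The choice of the 122 thus largely fixed the counts of both kinds in advance. The 122 held 11 of the 140 genes on the other-epithelium lists, 0 of 154 mesenchymal genes and 1 of 588 hepatocyte list genes, Aldh3a1. Members of interest outside the naming rule, chosen after their values were seen, were the sodium channel subunit Scnn1b (0.80, 1.15 and 1.79), the epithelial regulators Grhl2 (-1.77, -1.63 and -2.17) and Esrp1 (-2.51, -0.84 and -0.45), the pancreas and duodenum factor Pdx1 (-2.16, -2.61 and -0.47), and the lung genes Nkx2-1 (-4.30, -1.32 and -4.34) and Sftpc (-2.45, -2.95 and -4.73). With the mean of its probes, the change of Grhl2 went from 4.27 to 0.89 and its call was lost. With normexp background the calls of Nkx2-1, Sftpc and Pdx1 were lost, at changes of 1.05, 0.74 and 1.785. Scnn1b, Grhl2 and Esrp1 kept theirs there. The call of Nkx2-1 was also lost without type 1, and that of Sftpc without type 1 or type 2. At the bound, Nkx2-1 and Sftpc were at least 5.42-fold and 5.21-fold above hepatocytes.

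**Figure D5:**
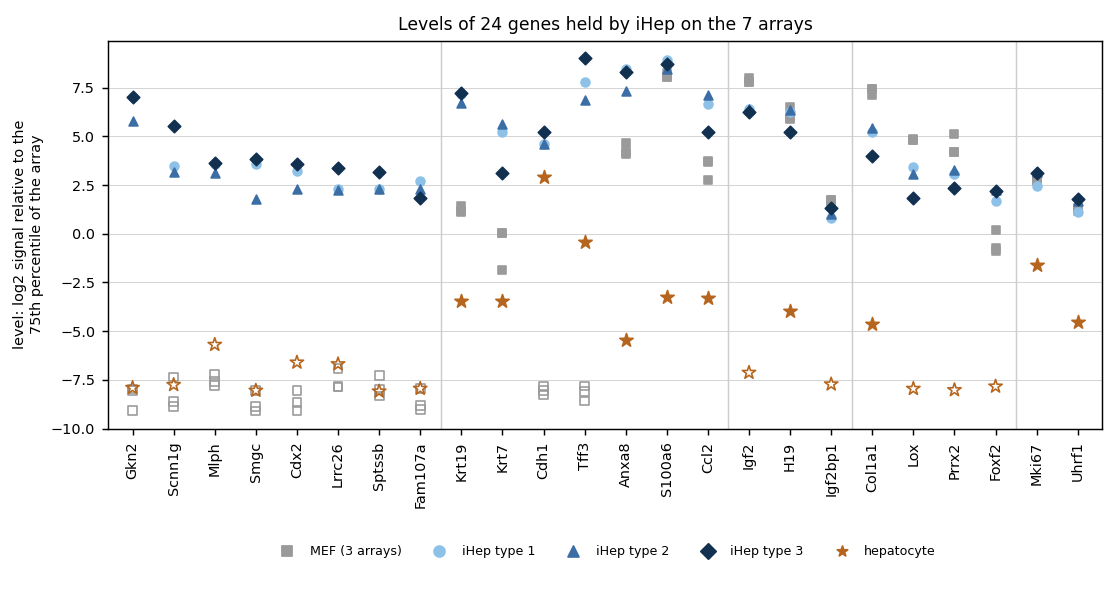
Each point is the level of a gene on 1 array (log2 relative to the 75th percentile) for genes higher in iHep, with open marks for probes without the flag for signal above background. Gkn2 and Cdx2 were detected on the 3 iHep arrays alone, while Igf2 and Col1a1 were also detected on every MEF array.

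Cell division genes had the highest share on the iHep side, 49 of 56 higher and 1 lower (median 3.69). Mki67, a marker of cycling cells, was at 2.44, 3.19 and 3.11 against -1.60 (22.9-fold), and Uhrf1, which copies DNA methylation, was 67.9-fold higher. Of 26 genes on the list of cell cycle brakes and D cyclins, 14 were higher in iHep and 0 were lower. Cdkn1a, the p21 inhibitor, was at 3.67, 3.0 and 3.50 against -3.46.

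The acute phase and inflammation list was even, with 14 of 39 genes higher in iHep and 14 lower (median 0.78). Its lower genes included the liver products Orm1, Fga and Itih4, and its higher genes the chemokines Cxcl5 (3.82, 3.95 and 3.88, at least 798-fold) and Ccl2 (6.67, 7.14 and 5.25 against -3.31). Interferon response genes were 8 higher and 6 lower of 42 (median -0.17). Oas2 was 83.2-fold higher, while the class I genes B2m and H2-K1 were 4.95-fold and 3.19-fold lower, calls that were lost under quantile normalization, with the deposited value table and without type 1. For B2m the call was also lost without type 2 and with the mean of its probes. The lower count of this list was 2 under quantile normalization and with the value table, and 1 without type 1. Immediate early genes were 11 higher and 3 lower of 30, but 9 were lower without type 3 and 1 without type 2 or under quantile normalization. Of 48 Wnt, TGF-beta and IGF signalling genes, 21 were higher and 7 were lower (median 2.09), among them Wif1 (at least 121-fold) and Fzd2 (at least 96.0-fold), both higher.

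Genes of other liver cells were on the hepatocyte side. On the Kupffer list, 19 of 24 genes were lower in iHep and 1 was higher (median -5.57), and on the endothelial list 22 of 29 were lower and 0 were higher (median -5.74). Cd5l and Clec4f, of Kupffer cells, were at 2.96 and 1.46 on the hepatocyte array and detected in no iHep type. Kdr, an endothelial receptor, was at 1.64 and likewise detected in no type. Cd5l and Kdr were also detected on every MEF array, and Clec4f on none. Many genes of these lists were on every MEF array, 20 of 24 for Kupffer cells and 17 of 29 for endothelium. On the stellate list 8 of 22 were lower and 4 were higher (7 without type 3), with a median of -0.83. Among the 11 stellate genes detected on all 4 arrays 3 were lower and 3 were higher, with a median of 0.62. On the blood list 10 of 18 were lower and 1 was higher (3 without type 3). Of 93 genes on these lists, 35 (37.6%) were detected in hepatocytes and in no iHep type, against 7.75% of all genes. These genes are part of the hepatocyte-only class without marking hepatocytes, and their part in other entries of that class was not tested.

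The iHep types differed in how much of the liver programme each showed. Of 393 hepatocyte list genes that were lower in iHep and detected in some type, 190 (48.4%) were highest in type 2, 141 (35.9%) in type 3 and 62 (15.8%) in type 1. Over all 3860 such genes the shares were 30.9%, 45.9% and 23.2%. Of 34 list genes detected in a single type, 22 were in type 2 and 6 in each of the others. Over all genes detected in hepatocytes and in a single type, 63, 247 and 246 were in types 1, 2 and 3. Type 2 also had the largest share of probes well above background among the iHep arrays, 63.6% against 61.0% and 62.4% in types 1 and 3. Type 2 was the only type with detected Otc, Mup1 and Hamp, while type 1 was the only type with detected Foxa1, Foxa2 and Nr1h4. Whether the Foxa probes read introduced copies is not known. With 1 array per type, these counts have no replicate check. The correlation with the hepatocyte array over tested genes was 0.676, 0.694 and 0.688 for types 1, 2 and 3, between 0.59 and 0.60 for the MEF arrays and between 0.964 and 0.981 among iHep types. Genes are not independent replicates, and all arrays share their probes.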

How the data were processed

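Total RNA of 7 samples was read on 1-colour Agilent mouse arrays after Cy3 labelling. Per the file headers, the authors' deposited intensity values (background-subtracted and spatially detrended) came from Agilent Feature Extraction 9.5.1.1, with annotation build mm8. The deposited flags (other) mark spots well above background, saturated or outlying. How the deposited value table was scaled was not given in the sources used here; its column medians were all 66.4, its values followed the scanner signals (r of 0.9988 or more), and it served as an alternative.

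From the deposited intensity, log2 signal minus the 75th percentile of each array was computed, with outlier spots left out and repeated spots averaged. The brightest probe stood for a gene, and 24479 of 41174 probes were named by accession through RefSeq. Genes well above background on every array of some group were tested. The fit used limma 3.58.1 in R 4.3.3 over all 3 groups, with 3 residual degrees of freedom. MEF arrays 2 and 3 differed by no more than repeated spots and were counted as 1 sample. On simulated data, changes of 2 and 4 log2 units in each direction were put into 50 genes each out of 19130. Of the 4-unit changes 76% to 80% were called, and of the 2-unit changes 10% to 16%, with 6 false calls among the unchanged genes. Far fewer genes changed there than were called in the data, which makes the adjusted threshold stricter. The simulated hepatocyte sample was also given the same spread as the others. These rates therefore do not carry over to the data. The number of arrays limits the precision, and nothing states that the iHep arrays are separate cultures of 1 kind, so p-values cover only the spread among these arrays, which may be technical. Genes named are the 8 called genes with the largest change in each direction, the 8 with the largest bound on each side, the 8 held by iHep alone with the largest bound, up to 3 called members in each direction and the uncalled member with the largest change of each list, and a fixed set. Those named in addition were chosen after their values were seen. The members, lists and pairs were chosen with earlier results of these data known. A few genes counted in the lists and pairs are not reported here by name.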

Additional observations from a re-analysis of the deposited data

How the results depend on the processing

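Over the alternatives tried, 3605 to 5988 genes were higher in hepatocytes and 3315 to 4919 in iHep, all within 1.5 times of the counts given above. Leaving out 1 iHep array or MEF sample gave 4042 to 5548 and 3315 to 4646. Calls from the deposited value table numbered 4412 higher in hepatocytes and 4919 higher in iHep, so 47.3% were on the hepatocyte side, and quantile normalization gave 47.4%, against 55.1%. The slide as a random block gave 5392 and 4359. Asking in addition for a 4-fold difference from the bound left 658 genes of hepatocytes without iHep, 804 of iHep without hepatocytes and 71 of iHep alone. The counts of genes at least 4-fold from every iHep array became 4826 and 3703 at 2-fold, 1597 and 1487 at 8-fold, and 1489 and 1185 with normexp background, which adds an offset to dim signals. Of 1939 comparisons over 277 genes, 1829 kept their direction and side of the threshold, 54 gained and 48 lost a call, and 8 changed sign. Masp1 (-3.30) and Alx4 (0.96) did so with the mean of all probes. Arg2 did so under quantile normalization (0.20) and with the value table (0.21), and ranged from -0.74 to 0.90 when 1 iHep array was left out. Adh7 then ranged from -1.77 to 0.45, and Fabp5 from -0.92 to 0.51 (0.23 without type 2). The cause of these was not tested. Over 37 lists and 7 alternatives, 162 of 259 medians moved by less than the spread between iHep arrays and 97 by more, with no change of sign. Where only genes detected on all 4 arrays were tested, the intestinal median turned from -0.94 to 2.13 and the stellate median from -0.83 to 0.62. For 18 genes chosen after their values were seen, 109 of 126 comparisons kept their direction and side of the threshold, 4 gained and 11 lost a call. In 2, the sign changed: Cyp2b9 ranged from -1.77 to 0.21 and Cyp2b13 from -1.42 to 0.70 when 1 iHep array was left out. Counts of called list members were recomputed after seeing the data, and 627 of 658 were within 1.5 times. The 475 hepatocyte list genes became 338 to 499, the lowest where only genes detected on all 4 arrays were tested. These comparisons are not independent. Leaving out all MEF arrays or either MEF sample gave the same counts, and quantile normalization and the value table gave nearly the same. No paired analysis was possible because the hepatocyte group has 1 array and so shares fewer than 2 replicate numbers with iHep.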
